A study of Mus musculus with 6 samples.

Results

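The genes described are those for the nucleus-encoded subunits of the respiratory chain and of the ATP synthase, together with the assembly factors of complex I. They were chosen by name alone, as the genes whose platform symbol begins with Nduf, Uqcr, Atp5 or Cox followed by a digit from 4 to 8, or is Sdha, Sdhb, Sdhc or Sdhd. The rule found 90 of the 18193 genes that had a probe set with a single symbol. Each gene was read from its brightest probe set over the 6 arrays, and 88 of the 90 passed the filter on dim probe sets, among 11625 genes tested in all. By complex, 42 of the 88 belonged to complex I, 4 to complex II, 8 to complex III, 17 to complex IV and 17 to complex V.

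The cells were megakaryocyte progenitors (MkP), precursors committed to megakaryocytes, the source of platelets, from wild-type C57BL/6 mice. Of the 6 samples, 3 came from bone marrow of adults aged 12 to 18 weeks and 3 from E13.5 fetal liver. The same flow sort was used for both tissues, negative for lineage markers and Sca-1 and positive for c-kit, CD150 and CD41. The labels call them biological replicates but do not say how many mice or embryos went into each or whether any were pooled, so p-values measure the spread between these samples only. Values are Affymetrix MAS5 signals, a linear probe set intensity scaled by the authors to the same trimmed mean (500) on every array. A log2 fold change is the fetal liver mean minus the marrow mean of log2(signal + 2.87). Its standard error (SE), 95% interval and p, adjusted by Benjamini-Hochberg, come from a limma fit over the 11625 genes, and the threshold is an adjusted p of 0.05.

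The respiratory chain passes electrons from NADH (complex I) and succinate (complex II) through coenzyme Q to complex III, then through cytochrome c to complex IV, which reduces oxygen. Complexes I, III and IV pump protons across the inner mitochondrial membrane, and complex V, the ATP synthase, lets them flow back to make ATP. Most subunits are encoded in the nucleus and imported, while a core set of complexes I, III, IV and V is encoded by mitochondrial DNA. Several subunits of complex IV and the ring subunit of the ATP synthase come from small gene families, some members of which are known for expression in particular tissues such as muscle or testis.

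Differences between fetal liver and marrow MkP were small for most of these genes. Ndufs1, which encodes the largest core subunit of complex I, rose in fetal liver past the threshold (limma adjusted p = 0.0445). Of the 88 genes no other passed it, in either direction. Over all genes tested, 3.01% passed the same rule as higher in fetal liver and 4.76% as higher in marrow, so 1 of 88 is not above the background. At an unadjusted p under 0.05, 13 members had a positive change and 0 a negative one, against 1242 and 1401 of 11625 genes. For 57 of the 88 members (64.8%) the 95% interval of the difference lay within 2-fold in both directions, against 30.9% of all genes tested. The change exceeded 1 on the log2 scale in 4 members (4.55%), against 17.8% of all genes. The median SE was 0.21 for the members and 0.38 for all genes, and a smaller SE by itself narrows the interval. These shares were not adjusted for signal level.

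Small differences leaned towards fetal liver. The median log2 fold change of the 88 members was 0.25, beside 0.01 for all genes tested, and 68 of the 88 had a positive change, against a background of 50.5%. All genes were not matched to the members for signal level. With the filter at the 60th percentile the medians were 0.26 for members and 0.04 for all genes. In 17 members (19.3%) all 3 fetal liver signals lay above all 3 marrow signals, close to the 13.8% of all genes. In 2 members (2.27%) all 3 marrow signals lay above all 3 fetal liver signals, against 14.2% of all genes. By complex the median was 0.27 for complex I, 0.09 for complex II, 0.43 for complex III, -0.02 for complex IV and 0.25 for complex V. Complex IV had the only negative median, which was positive under 8 of 16 alternatives (0.05 under quantile normalization, 0.23 under median centring). No difference between complexes was tested.

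The members' median depended on scaling and on marrow replicate 2. At the same trimmed mean, the median signal of an array was 74.1 to 80.2 in marrow and 62.8 to 65.5 in fetal liver. Under median centring of the arrays, which moved the median of all genes from 0.01 to 0.26, the members' median was 0.50 and 14 of the 88 were past the threshold, all higher in fetal liver, where 7.72% of all genes were. Non-overlapping groups with fetal liver above then counted 45 members against 24.6% of all genes, and those with marrow above 1 member against 8.8%. Under quantile normalization the medians were 0.21 for members and 0.09 for all genes. Without marrow replicate 2 the members' median was 0.13, with 0.01 for all genes. The members' median minus that of all genes was 0.25 both in the main fit and under median centring, which moves all genes of an array alike. It was 0.12 under quantile normalization and 0.12 without marrow replicate 2.

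**Figure D1:**
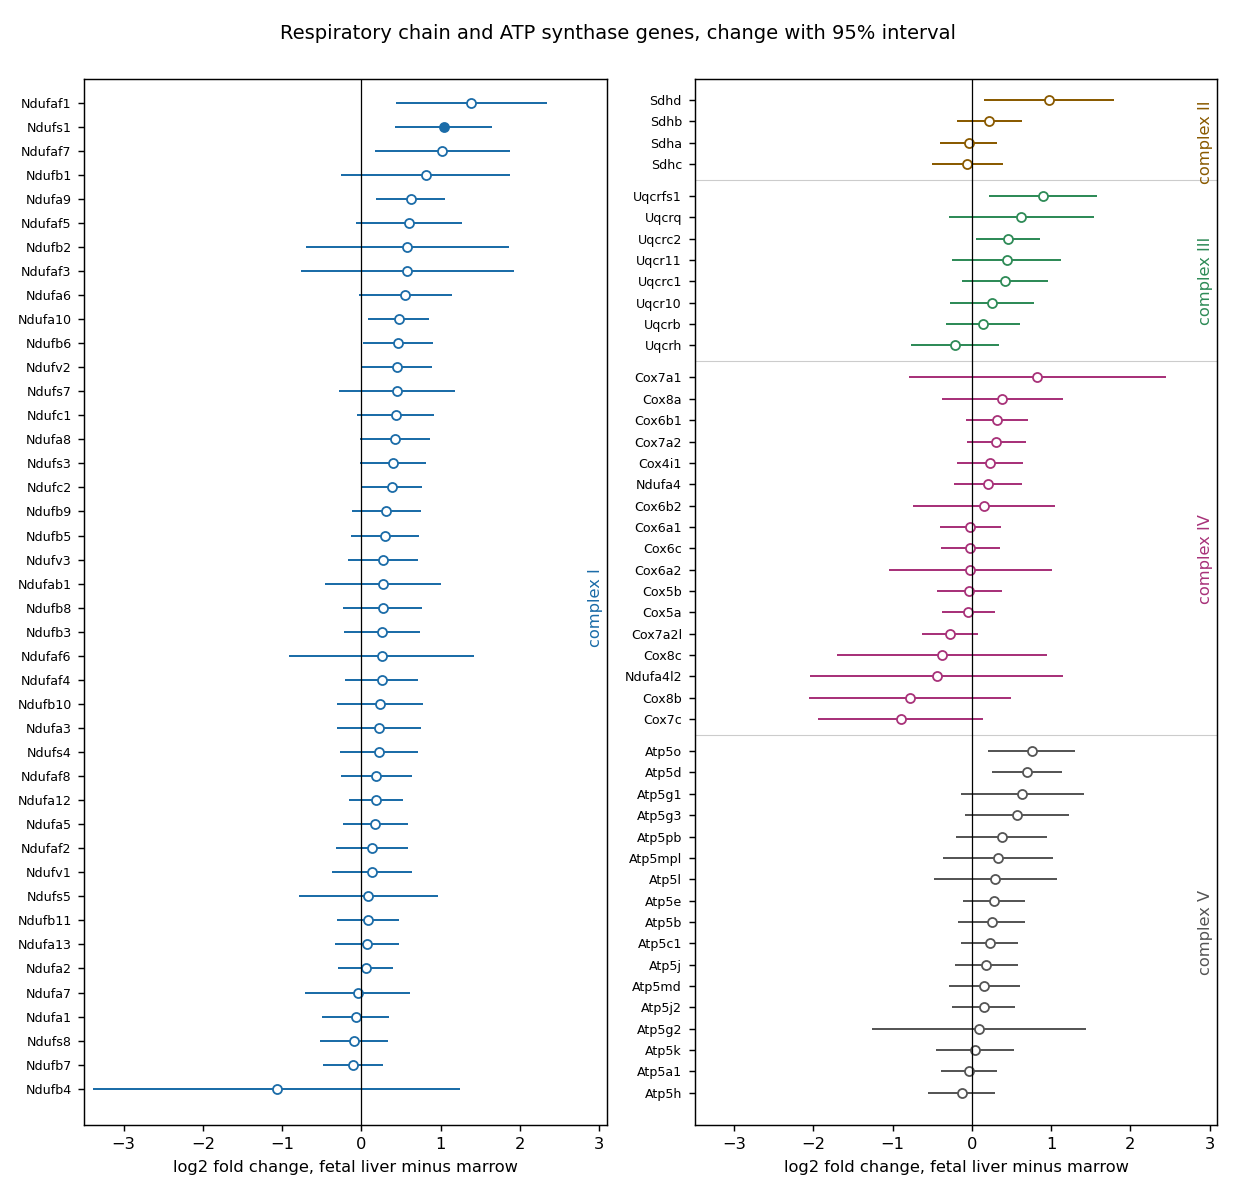
Log2 fold change (fetal liver minus marrow, horizontal axis) of each of the 88 genes tested, with its 95% interval, complex I on the left and complexes II to V on the right. The filled point is the gene past the threshold, Ndufs1; most intervals cross or touch 0, and dim genes such as Ndufb4, Cox7a1 and Ndufa4l2 have the widest.

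**Figure D2:**
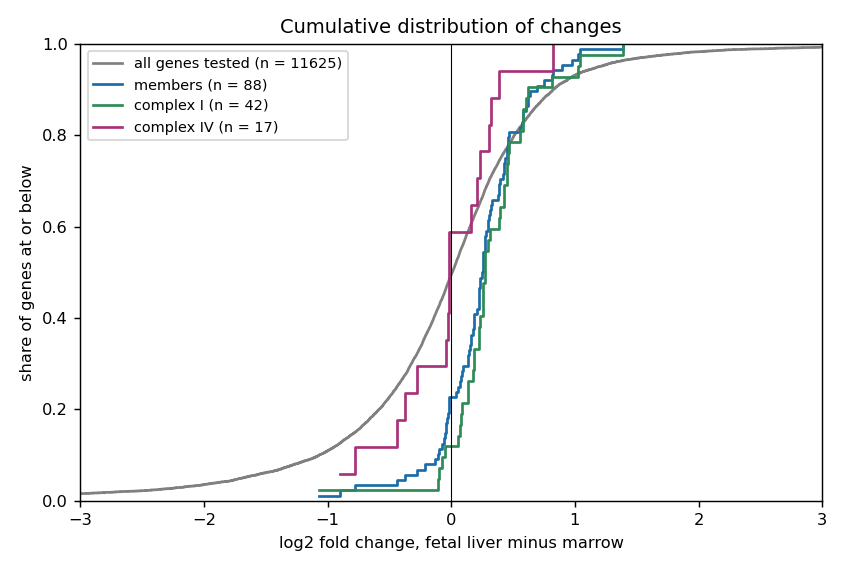
Cumulative share of genes (vertical axis) at or below a log2 fold change (horizontal axis) for all 11625 genes tested, the 88 members, complex I (42) and complex IV (17). The members' curve is steeper than that of all genes and crosses the middle at 0.25 rather than 0.01, while that of complex IV crosses near 0.

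The promoters of these genes are known for sites of the nuclear respiratory factor NRF1 and of ETS factors such as GABP. Promoter sequence was found for 74 of the 90 genes in the RefSeq table of GRCm38.p6, as 79 windows of which the 250 bases before the start were searched on both strands. The NRF1 core, read as GCGCA, any base and GCGC, occurred in 13 of the 79 windows (16.5%), against 3.74% of all 32851 promoters in the table. The ETS core CCGGAAG occurred in 14 of 79 (17.7%), against 6.91%. The 2 motifs do not overlap each other in the sequences shown, and a match is a description of the letters only. Both occurred before 3 genes, Atp5h, Cox6a1 and Sdhd, which are shown with Ndufaf1, the member with the largest change, so that matches can be seen before genes with near-zero and with larger values. Capitals mark the motif matches on either strand, and each sequence runs 5′ to 3′ towards the gene's start.
Atp5h, chr11:115419920-115420169, minus strand: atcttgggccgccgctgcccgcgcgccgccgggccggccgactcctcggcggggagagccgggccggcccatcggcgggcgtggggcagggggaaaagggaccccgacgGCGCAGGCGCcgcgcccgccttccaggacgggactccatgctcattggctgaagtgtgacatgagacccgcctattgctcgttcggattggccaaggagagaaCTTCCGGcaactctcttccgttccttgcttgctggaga
Cox6a1, chr5:115348959-115349208, minus strand: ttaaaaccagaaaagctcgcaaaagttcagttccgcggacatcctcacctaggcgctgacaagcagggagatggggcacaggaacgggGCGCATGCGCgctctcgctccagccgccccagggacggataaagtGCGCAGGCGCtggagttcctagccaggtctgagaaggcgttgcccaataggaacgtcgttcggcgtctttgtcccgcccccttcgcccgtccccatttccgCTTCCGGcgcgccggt
Sdhd, chr9:50603850-50604099, minus strand: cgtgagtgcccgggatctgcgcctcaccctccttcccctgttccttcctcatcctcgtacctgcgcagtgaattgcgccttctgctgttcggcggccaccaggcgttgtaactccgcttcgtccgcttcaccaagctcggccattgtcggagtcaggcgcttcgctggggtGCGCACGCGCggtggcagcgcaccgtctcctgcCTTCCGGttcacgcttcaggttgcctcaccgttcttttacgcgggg
Ndufaf1, chr2:119662835-119663084, minus strand: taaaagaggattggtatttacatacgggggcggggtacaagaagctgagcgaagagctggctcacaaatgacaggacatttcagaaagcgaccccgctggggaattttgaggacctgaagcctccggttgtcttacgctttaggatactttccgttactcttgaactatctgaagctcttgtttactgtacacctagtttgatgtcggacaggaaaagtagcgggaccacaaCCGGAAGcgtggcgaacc

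Genes with and without a match spanned overlapping ranges of change. The 12 tested genes with an NRF1 match had changes from -1.07 to 0.97 with a median of 0.09, and the 61 without had a median of 0.27. The 14 genes with an ETS match had a median of 0.29 and the 59 without a median of 0.26. Of the genes shown, Cox6a1 differed by -0.02 (95% interval -0.39 to 0.35) and Atp5h by -0.13 (-0.54 to 0.28), while Sdhd differed by 0.97 (0.17 to 1.78) and Ndufaf1 by 1.39 (0.45 to 2.32). The difference between these groups of genes was not tested.

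Complex I takes electrons from NADH through core subunits that hold its flavin and iron-sulphur clusters. Ndufs1, which carries several of those clusters, had signals of 1362, 706 and 1139 in marrow replicates 1 to 3 and of 2018, 2057 and 2293 in fetal liver. The 3 fetal liver arrays lay close together and above every marrow array. Marrow averaged 1069 ± 333 (SD, n = 3) and fetal liver 2123 ± 149, which gave a fold change of 1.04 ± 0.27 (log2, SE; limma adjusted p = 0.0445; 0.0138 to 0.173 over 15 alternatives). The call was lost in 8 of these, including those without marrow replicate 2 (0.77, adjusted p = 0.0812), without marrow replicate 3 (adjusted p = 0.0671) and without fetal liver replicates 1, 2 and 3 (adjusted p = 0.0937, 0.14 and 0.173). 

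The other 5 core subunits tested were not past the threshold. Ndufv2, which holds an iron-sulphur cluster beside the flavin subunit, had signals of 5404, 3966 and 4100 in marrow and 7162, 5648 and 5552 in fetal liver, with no overlap (log2 change 0.45 ± 0.19 (SE), adjusted p = 0.194). Ndufs3 had 2537, 2220 and 2438 in marrow and 2901, 3321 and 3262 in fetal liver, also with no overlap (0.40 ± 0.18, adjusted p = 0.234). Ndufs7 was at 1994 in marrow replicate 2 but at 5476 and 4595 in replicates 1 and 3, on either side of the range of fetal liver (4712 to 5400), so the groups overlapped. Ndufv1, the flavin subunit that binds NADH, differed by 0.13 (95% interval -0.36 to 0.62) and Ndufs8 by -0.10 (-0.51 to 0.32). The other Ndufs8 probe sets past the filter gave 0.44, 0.55, 0.24, 0.70 and -0.05, so its direction was not settled.

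The 28 supernumerary subunits tested, which surround and stabilise the core, had a median change of 0.27, and 24 were positive. None was past the threshold, and for 23 of them the 95% interval lay within 2-fold. Ndufa9, of the matrix arm, had signals of 4703, 3480 and 5069 in marrow and 6343, 6393 and 7480 in fetal liver, which is a change of 0.62 ± 0.19 (SE, adjusted p = 0.0773). Ndufa10 had 5828, 5580 and 4818 against 8323, 6830 and 7306 (0.47 ± 0.17, adjusted p = 0.12). Ndufa6, Ndufa8, Ndufa12, Ndufb1, Ndufb6 and Ndufc2 also had every fetal liver signal above every marrow signal, with changes from 0.19 (Ndufa12) to 0.81 (Ndufb1) and adjusted p from 0.191 to 0.518. Under median centring Ndufa9, Ndufa10, Ndufa8, Ndufb6, Ndufc2, Ndufs3 and Ndufv2 were past the threshold (adjusted p = 0.0152 to 0.0491). Ndufb7, a small subunit of the membrane arm, had 22711, 18313 and 19527 in marrow and 22965, 16289 and 17361 in fetal liver, a difference of -0.11 (95% interval -0.48 to 0.26), while its second probe set gave 0.52 with no overlap. Ndufa2 differed by 0.05 (-0.28 to 0.39) and Ndufa1 by -0.07 (-0.48 to 0.33).

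Ndufb4 was the complex I gene with the most negative value, -1.07, and its measurement was poor. Its signals were 282, 15.6 and 48.9 in marrow and 25.1, 90.2 and 8.44 in fetal liver, above background on 2 and 1 of 3 arrays, with a 95% interval from -3.37 to 1.23. Background here is each array's brightest bacterial control, between 22.2 and 35.1. Of the 10 probe sets that pair a symbol fitting the name rule with another gene, which were not used, 2 name Ndufb4 with its near copies Ndufb4b and Ndufb4c. For Ndufa11 and Ndufs6 every listed probe set was of that kind, and neither is among the 90 genes.

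All 8 assembly factors of complex I, which help to build it and are not part of the finished enzyme, had positive changes with a median of 0.42, and none was past the threshold. Ndufaf1, a chaperone of its membrane arm, had the largest change of the 88 members. Its signals were 116, 149 and 281 in marrow and 486, 388 and 478 in fetal liver, so that the highest marrow array lay below the lowest fetal liver array. Marrow averaged 182 ± 87.1 (SD, n = 3) and fetal liver 450 ± 54.5, which is a change of 1.39 ± 0.42 (SE, adjusted p = 0.0759; 0.0307 to 0.247 over 16 alternatives). It passed the threshold with marrow replicate 3 left out (adjusted p = 0.0388), under quantile normalization (0.049), under median centring (0.0307) and with the mean of probe sets (0.0482). Ndufaf7, a mitochondrial methyltransferase, had 468, 393 and 910 against 762, 1262 and 1466, where marrow replicate 3 overlapped fetal liver (1.02 ± 0.38, adjusted p = 0.138). The remaining 6 had changes from 0.13 (Ndufaf2) to 0.61 (Ndufaf5). Ndufaf4, at 0.26, had a second probe set at 1.20 with no overlap and was past the threshold with the mean of probe sets.

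**Figure D3:**
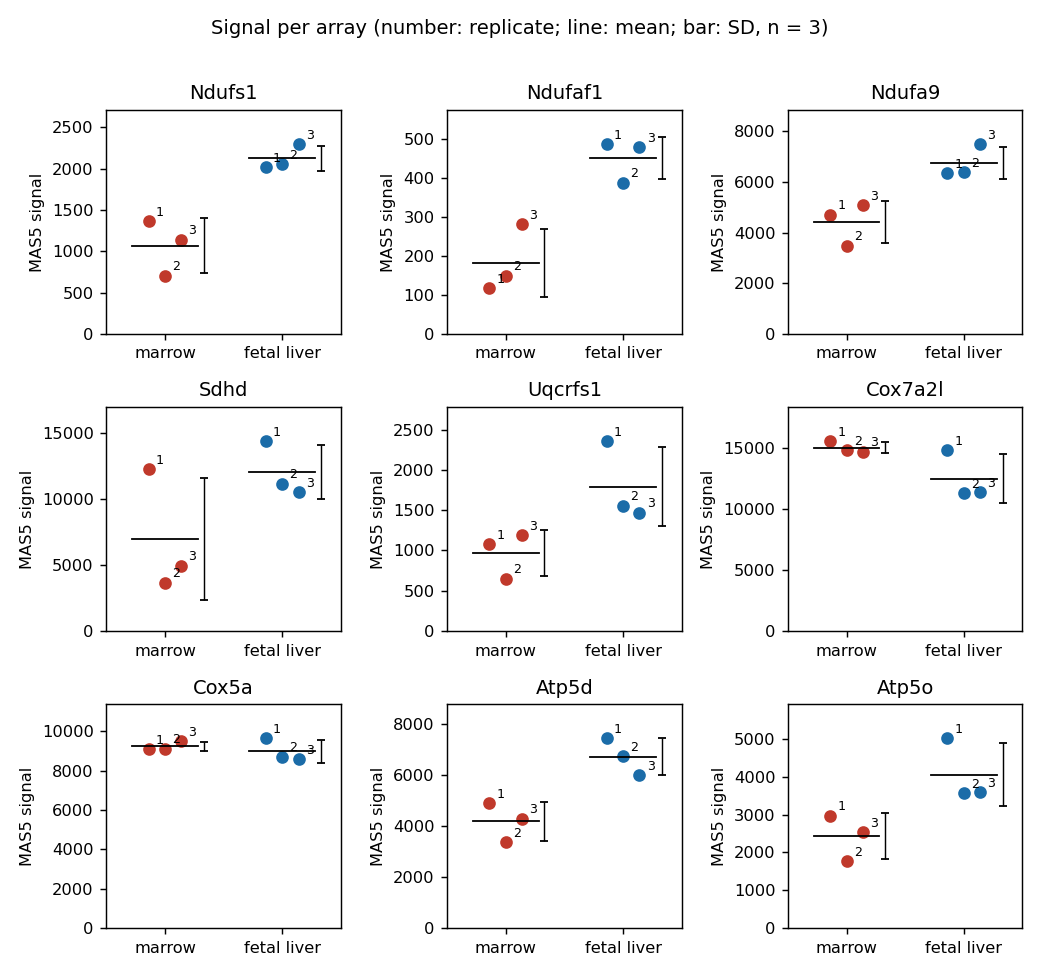
MAS5 signal (vertical axis, linear and from 0) on each array of marrow and fetal liver for 9 genes, with the replicate number beside each point, the mean as a line and the SD (n = 3) as a bar. Ndufs1, Ndufaf1, Ndufa9, Uqcrfs1, Atp5d and Atp5o do not overlap between tissues, Sdhd, Cox7a2l and Cox5a do, and marrow replicate 2 is the lowest array for Ndufs1, Ndufa9, Sdhd, Uqcrfs1, Atp5d and Atp5o.

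Complex II, succinate dehydrogenase, is also an enzyme of the tricarboxylic acid cycle and has no subunit in mitochondrial DNA. Its flavoprotein Sdha had signals of 14403, 12310 and 12468 in marrow and 14970, 11706 and 11569 in fetal liver, a difference of -0.04 (95% interval -0.39 to 0.31). The iron-sulphur subunit Sdhb, at 3454, 3062 and 2915 in marrow and 3420, 3739 and 3818 in fetal liver, differed by 0.22 (-0.17 to 0.61) and the membrane anchor Sdhc by -0.06 (-0.50 to 0.38). The other anchor, Sdhd, was at 12291, 3669 and 4948 in marrow and 14379, 11180 and 10536 in fetal liver. Marrow replicate 1 thus lay among the fetal liver arrays, apart from the other marrow arrays, and the change of 0.97 ± 0.36 (SE) had an adjusted p of 0.139, against 0.00573 without marrow replicate 1 (change 1.48). The second probe set of Sdhd gave 4833, 5143 and 6774 in marrow and 6186, 8322 and 8430 in fetal liver, where marrow replicate 1 was the lowest array and the change was 0.46.

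Complex III passes electrons from coenzyme Q to cytochrome c, and 7 of its 8 genes that fit the name rule had positive changes. Uqcrfs1, the Rieske iron-sulphur protein, had signals of 1075, 648 and 1190 in marrow and 2353, 1556 and 1469 in fetal liver. The groups did not overlap, and the change was 0.90 ± 0.30 (SE, adjusted p = 0.104; 0.0314 under median centring). The core protein Uqcrc2 was at 5580, 5327 and 5194 in marrow and at 9056, 6414 and 6908 in fetal liver, again with no overlap (0.46 ± 0.18, adjusted p = 0.151; 0.0317 under median centring), and its partner Uqcrc1 differed by 0.42 ± 0.24 (adjusted p = 0.339). Of the small subunits, Uqcrq had the largest change, 0.62 (95% interval -0.28 to 1.53), with signals of 941, 614 and 1865 in marrow and 1024, 1952 and 1979 in fetal liver. Uqcrh, the hinge protein beside cytochrome c1, was the negative member at -0.21 (-0.75 to 0.33). Its second probe set gave 0.41, so its direction was not settled.

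Uqcr10, a small subunit of complex III, was read differently by its 3 probe sets. The brightest had signals of 1648, 1979 and 1242 in marrow and 1899, 1967 and 1849 in fetal liver, a difference of 0.26 (95% interval -0.26 to 0.77). The second had 59.5, 84.3 and 263 in marrow and 971, 199 and 536 in fetal liver, and the third 3.37, 15.3 and 49.98 in marrow and 571, 94.5 and 380 in fetal liver. In the third probe set every fetal liver signal lay above every marrow signal, with a change of 3.93, but marrow was above background on 1 of 3 arrays only, so the size of that change is not settled. Uqcr10 was past the threshold when suffixed probe sets, those ending in _x_at, _s_at or _a_at, were left out (adjusted p = 0.0215). That rule dropped the brightest probe set too and left only the third. Uqcr10 was also past it with the mean of probe sets (2.08, adjusted p = 0.0343).

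Complex IV, cytochrome c oxidase, had the median closest to 0. Ndufa4, named as a complex I gene but known as a subunit of complex IV, and its relative Ndufa4l2 are counted here. Of 17 genes tested, 7 had positive and 10 negative changes. In 0 of the 17 all fetal liver signals lay above all marrow signals, against 13.8% of all genes. In 2 (11.8%) all marrow signals lay above, against 14.2% of all genes. These shares were not tested. Cox5a had signals of 9088, 9130 and 9503 in marrow and 9642, 8720 and 8583 in fetal liver, a difference of -0.04 (95% interval -0.36 to 0.28). Cox5b differed by -0.03 (-0.43 to 0.37), Cox6c by -0.02 (-0.38 to 0.34) and Ndufa4 by 0.21 (-0.21 to 0.62). Cox7a2l is known for a role in joining complexes III and IV into supercomplexes, which was not examined in these cells. It was at 15544, 14825 and 14701 in marrow and at 14814, 11274 and 11394 in fetal liver. Fetal liver replicate 1 overlapped marrow, and the difference was -0.28 ± 0.15 (SE, adjusted p = 0.327). Its other 2 probe sets gave -0.23 and -0.33.

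None of the isoforms of complex IV that were tested was past the threshold. Of the broadly expressed forms, Cox4i1 had signals of 8690, 7082 and 9582 in marrow and 8108, 10939 and 10780 in fetal liver, a difference of 0.23 (95% interval -0.17 to 0.64). Cox6a1 had 6782, 9098 and 7241 against 7544, 7917 and 7212 (-0.02, interval -0.39 to 0.35), and Cox6b1 had 10212, 9808 and 8098 against 13700, 11266 and 10186 (0.32, interval -0.06 to 0.70). All 3 overlapped between tissues. Cox7a2 had 7485, 8175 and 9336 against 9051, 10634 and 11210 (0.31, interval -0.05 to 0.66) and was past the threshold under median centring (0.56, adjusted p = 0.0499). Cox8a had 1560, 892 and 1957 against 1308, 2562 and 1814 (0.39, interval -0.36 to 1.13). Several forms known from particular tissues were near background. Cox4i2, an isoform known for its response to low oxygen in lung, had signals of 9.85, 11.8 and 37.3 in marrow and 53.7, 16.2 and 25.5 in fetal liver and did not pass the filter. Cox7b2 did not pass it either, with signals from 0.729 to 4.57 over the 6 arrays.

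The heart and muscle form Cox7a1 was at 107, 27.3 and 26.0 in marrow and 34.2, 101 and 135 in fetal liver, above background on 2 of 3 arrays of each, with an interval from -0.78 to 2.44. Cox6a2, the muscle form of Cox6a, had 175, 97.9 and 181 in marrow and 141, 174 and 121 in fetal liver, which overlapped fully (-0.02, interval -1.04 to 0.99). Cox6b2, known from testis, was above background on every array, at 812, 714 and 1335 in marrow and 555, 1486 and 1297 in fetal liver (0.16, interval -0.73 to 1.04). Ndufa4l2, a known target of hypoxia-inducible factor, had 74.9, 46.4 and 53.6 in marrow and 86.8, 12.3 and 60.6 in fetal liver (-0.44, interval -2.03 to 1.14). Cox8b had 40.3, 78.5 and 40.5 in marrow and 25.4, 33.2 and 26.6 in fetal liver, without overlap, and was above background on 3 and 1 arrays (-0.78, interval -2.04 to 0.48). Cox8c had 78.3, 39.8 and 66.4 against 62.8, 57.96 and 24.6 (-0.38, interval -1.68 to 0.93).

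Cox7c had the most negative value of the broadly expressed forms, with signals of 177, 166 and 377 in marrow and 119, 120 and 116 in fetal liver. No fetal liver array reached the lowest marrow array, but the change of -0.90 ± 0.47 (SE) had an adjusted p of 0.289. The second probe set of Cox7c had 62.1, 45.6 and 98.9 in marrow and 104, 91.2 and 56.6 in fetal liver, which is a change of 0.30 with overlap, so the direction for Cox7c was not settled.

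The catalytic head of the ATP synthase and its central stalk are made of the products of Atp5a1, Atp5b, Atp5c1, Atp5d and Atp5e. Atp5a1, the alpha subunit, was at 31086, 26314 and 26778 in marrow and 33250, 24629 and 24697 in fetal liver, a difference of -0.04 (95% interval -0.38 to 0.31). Of its other 2 probe sets 1 gave -0.13, and the other had 6085, 6608 and 7602 in marrow and 10608, 9323 and 10332 in fetal liver, which is a change of 0.58 with no overlap. The catalytic beta subunit Atp5b differed by 0.25 (-0.16 to 0.66) and the gamma subunit Atp5c1 by 0.23 (-0.12 to 0.58). Atp5d, the delta subunit of the stalk, had 4896, 3359 and 4299 in marrow and 7445, 6738 and 6009 in fetal liver. Its groups did not overlap, and marrow averaged 4185 ± 775 (SD, n = 3) and fetal liver 6731 ± 718, which is a change of 0.70 ± 0.19 (SE) that just missed the threshold (adjusted p = 0.0523; 0.0111 to 0.18 over 15 alternatives, below 0.05 in 6). Its second probe set gave 1518, 1585 and 1703 against 1819, 2965 and 2484, a change of 0.57 with no overlap. The epsilon subunit Atp5e had every fetal liver signal above every marrow signal with a difference of 0.28 ± 0.17 (adjusted p = 0.382).

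In the peripheral stalk, which holds the head still, Atp5o (known as OSCP) had the largest change by brightest probe set. Its signals were 2979, 1774 and 2538 in marrow and 5019, 3566 and 3593 in fetal liver, with no overlap and a change of 0.75 ± 0.24 (SE, adjusted p = 0.0899; 0.0232 under median centring). Its second probe set gave 0.63. Atp5h differed by -0.13 (95% interval -0.54 to 0.28), Atp5j by 0.18 (-0.20 to 0.57) and Atp5pb by 0.38 (-0.18 to 0.94). The second probe set of Atp5h gave 0.26, and that of Atp5pb gave 0.54 with no overlap.

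The proton-carrying ring is built of subunit c, which 3 genes encode with the same mature protein. Atp5g1 had signals of 734, 547 and 1259 in marrow and 919, 1375 and 1504 in fetal liver (0.63, 95% interval -0.13 to 1.40). Atp5g3 had 13847, 5436 and 10051 in marrow and 15794, 11948 and 13193 in fetal liver (0.57, interval -0.07 to 1.21). Atp5g2 had 769, 1397 and 2524 in marrow and 506, 2542 and 2544 in fetal liver (0.09, interval -1.25 to 1.43), where replicate 1 was the lowest array of both tissues. All 3 overlapped between tissues. The 5 small membrane subunits Atp5j2, Atp5k, Atp5l, Atp5md and Atp5mpl had changes from 0.04 to 0.33, and none was past the threshold.

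Much of the spread of these genes lay between replicates of a tissue. Marrow replicate 2 was the lowest of the 6 arrays for 42 of the 88 members, and fetal liver replicate 1 was the highest for 41. The median deviation of the members from their own mean was -0.24 (log2) on marrow replicate 2, 0.03 and -0.02 on marrow replicates 1 and 3, and 0.19, 0.11 and 0.12 on fetal liver replicates 1, 2 and 3, while that of all genes lay between 0.00 and 0.03 on every array. Replicate 1 was the highest array of both tissues for 36 of the 88 members (40.9%), against 16.1% of all genes. The ratio of 5′ to 3′ Gapdh signals, which drops where RNA or labelled product is short, was 0.0990 in marrow replicate 1 and 0.109 in fetal liver replicate 1, and between 0.177 and 0.449 on the other 4 arrays. The same ratio for Actb was 1.08, 1.13 and 1.06 in marrow replicates 1 to 3 and 0.892, 1.02 and 0.971 in fetal liver. By Actb, marrow replicate 1 was thus not the lowest of its tissue, while fetal liver replicate 1 was. The part of RNA quality in these values was not tested.

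**Figure D4:**
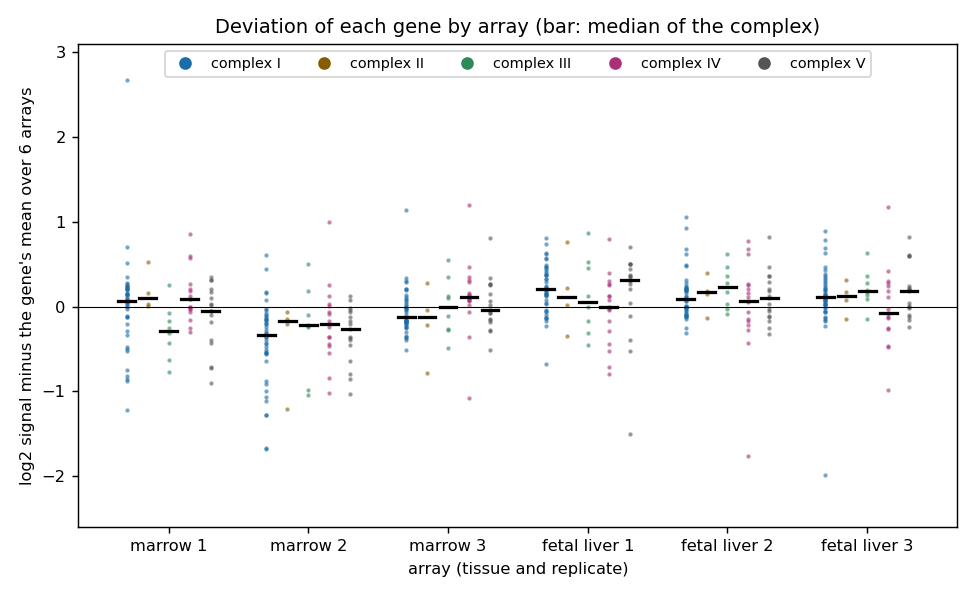
Log2 signal of each gene minus its mean over the 6 arrays (vertical axis) on each array (horizontal axis), coloured by complex, with the median of each complex as a bar. On marrow replicate 2 the medians of all 5 complexes lie below 0, and on fetal liver replicate 1 those of complexes I, II, III and V lie above it.

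Markers of other cell types moved with the tissue. Sums of marker signals cover every listed gene with a probe set, tested or not. Of 13 tested erythroid markers 5 were higher in fetal liver past the threshold, and 12 had a positive change. The sum over 14 genes was 7736 to 12417 in marrow and 15963 to 31421 in fetal liver. All 14 tested granulocyte and monocyte markers were lower in fetal liver, with sums over 16 genes of 48482 to 77173 in marrow and 5005 to 7303 in fetal liver, where Chil3, Csf3r, Fcnb, Ltf and Mmp8 were not above background on any array. Macrophage and mast cell or basophil markers were lower past the threshold in 3 of 5 tested each, and all 5 of each had a negative change. Their sums over 11 and 7 genes were 2081 to 3801 and 1869 to 3596 in marrow and 346 to 544 and 389 to 515 in fetal liver. In fetal liver Adgre1, C1qa, C1qc, Cd163, Mertk, Fcer1a, Mcpt8 and Prg2 were not above background. Of 5 tested hepatocyte markers 1 was higher in fetal liver past the threshold, and 4 had a positive change. Sums over 9 genes were 282 to 676 in marrow and 648 to 3739 in fetal liver. Ahsg, Fgb and Serpina1b were not above background in marrow, nor Apob and Fgb in fetal liver. None of 13 tested megakaryocyte and sort markers, among them Itga2b (CD41), was past the threshold, with sums over 14 genes of 51383 to 56924 in marrow and 44442 to 53545 in fetal liver. The part of these cells in the values of the respiratory genes was not tested, and in sorted bulk RNA fewer cells of a type and less RNA per cell cannot be told apart.

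Probe sets of the same gene often disagreed about small differences. Of 49 members with more than 1 probe set past the filter, the other 82 probe sets had the sign of the brightest in 52 cases, and the median spread between probe sets of a gene was 0.32 (log2). The spread exceeded 1 in 8 genes, which were Uqcr10, Uqcrq, Ndufa12, Ndufa3, Ndufa7, Atp5g1, Cox7c and Ndufab1. For Ndufa12 the brightest probe set and both other bright ones gave 0.19 to 0.48, while a dim one gave -1.53.

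**Figure D5:**
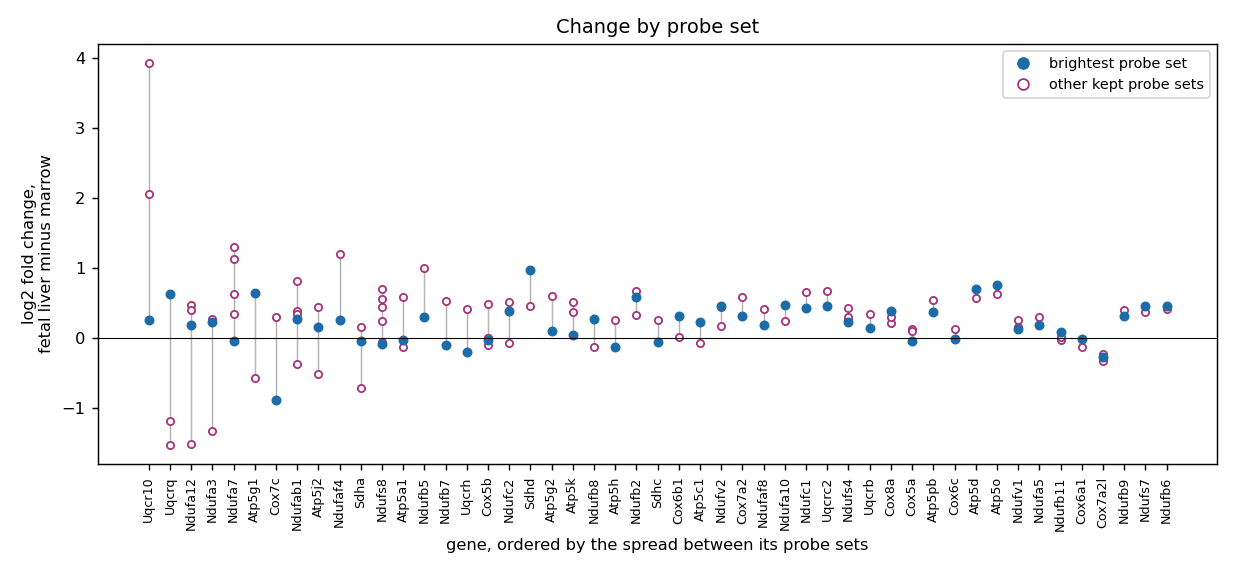
Log2 fold change (fetal liver minus marrow, vertical axis) of every probe set past the filter for the 49 members with more than 1, ordered by the spread between probe sets of the gene (horizontal axis). Filled points are the brightest probe set, used in the report, and open points the others; Uqcr10 reaches 3.93 by a dim probe set while its brightest is at 0.26.

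Other mitochondrial genes were examined from separate lists, of which 108 genes were tested. Of these, 2 were higher and 2 lower in fetal liver past the threshold. These counts are not above the 3.01% and 4.76% of all genes tested. The median change was 0.35, and 79 of the 108 were positive, beside 0.01 and 50.5% for all genes. Atp5md and Atp5mpl, listed among the electron carriers and partners, also fit the name rule and count in both the 108 and the 88. Of the assembly factors of other names 1 of 42 was higher past the threshold, Lrpprc, which stabilises mitochondrial messenger RNA. Lrpprc had signals of 1503, 1122 and 2047 in marrow and 3419, 3762 and 4040 in fetal liver, which is a change of 1.30 ± 0.24 (SE, adjusted p = 0.00972), and it was not past the threshold without fetal liver replicate 3 (adjusted p = 0.0561) or without the variance trend (0.0568; 0.00329 to 0.0568 over 16 alternatives). Of 12 genes of coenzyme Q synthesis 1 was higher past the threshold, the hydroxylase Coq7. It was at 658, 748 and 575 in marrow against 1665, 1474 and 1557 in fetal liver (difference 1.25 ± 0.24, adjusted p = 0.0114). Leaving out fetal liver replicate 2 or 3 ended the call of Coq7 (adjusted p = 0.0551 and 0.0668; 0.00541 to 0.0668 over 16 alternatives).

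Both genes that were lower past the threshold feed or regulate electron entry. Sqor, the sulphide oxidase that passes electrons to coenzyme Q, was the 1 of 14 electron carriers and partners past the threshold, with signals of 117, 97.4 and 337 in marrow and 8.59, 2.97 and 4.03 in fetal liver. No fetal liver array was above background, so the signal was at least 4.87-fold lower there (limma adjusted p = 0.00346; 0.00429 to 0.0153 over the 9 alternatives in which it passed the filter). Pdp1, the phosphatase that activates pyruvate dehydrogenase, was the 1 of 21 tricarboxylic acid cycle and pyruvate dehydrogenase genes past it. It had 575, 1324 and 467 in marrow and 170, 202 and 143 in fetal liver, a fall of 2.04 ± 0.44 (SE, adjusted p = 0.0193) that was lost without fetal liver replicates 1, 2 and 3 (adjusted p = 0.0557, 0.0514 and 0.0809) and with the mean of probe sets (0.114; 0.012 to 0.114 over 16 alternatives).

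Among 18 genes for upkeep of mitochondrial DNA and for nuclear control of respiration, 0 were past the threshold in limma, with 3 at an unadjusted p under 0.05, all higher in fetal liver. Tefm, a mitochondrial transcription elongation factor at 391, 259 and 221 in marrow and 519, 679 and 478 in fetal liver, differed by 0.96 ± 0.36 (SE, adjusted p = 0.138) and Tfb1m, a mitochondrial ribosomal RNA methyltransferase at 434, 236 and 260.5 against 651, 559 and 443, by 0.86 ± 0.37 (adjusted p = 0.193). Nrf1 and Gabpa are named for the motifs searched above. Nrf1 was at 969, 3849 and 3087 in marrow and 1717, 3446 and 3498 in fetal liver, lowest in replicate 1 of both tissues (0.28 ± 0.47, adjusted p = 0.784). Gabpa, the DNA-binding subunit of GABP, was at 3258, 3483 and 3231 in marrow and 2436, 2773 and 2822 in fetal liver, without overlap (-0.31 ± 0.18, adjusted p = 0.341). Of the subunits encoded in mitochondrial DNA, ND5 had a named probe set, with signals of 23568, 13408 and 15763 in marrow and 22979, 13459 and 13002 in fetal liver, highest in replicate 1 of both tissues (-0.10 ± 0.26, adjusted p = 0.863).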

How the data were processed

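Signals of 3 bone marrow and 3 fetal liver MkP samples were compared. The deposited intensity values are linear MAS5 signals that the authors scaled to a trimmed mean of 500 per array, as the values show with 2% trimmed from each end; MAS5 is named per the submitters' processing notes. Of 45101 probe sets, 64 controls and probe sets with several symbols (932) or unlisted in the platform annotation (9160) were left out. An offset of 2.87, the 10th percentile of all signals, was added before log2, and probe sets with a mean above the 40th percentile (27022) were kept. The brightest kept probe set stood for its gene. Tests used limma 3.58.1 in R 4.3.3 with an intensity trend (10.4 degrees of freedom) and Benjamini-Hochberg adjustment over 11625 genes. On simulated data with 200 of the 11625 genes changed, it recovered 12 of 67 at 2-fold, 35 of 67 at 4-fold and 57 of 66 at 16-fold, with 7 false calls. The simulation changed fewer genes than the 350 and 553 called in the data. It drew them from all genes tested, whose median SE was 0.38 against 0.21 for the members. Recovery of the members was therefore not measured. The number of arrays limits precision: an exact permutation test of 3 against 3 cannot go below p = 0.1.

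Full values are given for members past the threshold, the 2 largest changes of each complex, isoform families, and from each pathway list up to 4 genes past the threshold or else the 2 with the smallest p; other genes were named after their values were seen. The members and lists were chosen with earlier results of these data known. Alternatives changed the offset, scaling, filter, variance trend, probe set rule and replicate block, and left out each array. Suffixed probe sets, left out in an alternative, are those ending in _x_at, _s_at or _a_at. Replicates of the same number had deviations that correlated at 0.15, -0.02 and 0.08, and those of different numbers at -0.15 to 0.10. These values do not settle whether replicates share an effect. The labels do not say that the numbers pair the tissues, so they were not taken as pairs.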

Additional observations from a re-analysis of the deposited data

How the results depend on the processing

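Of 1384 member values under 16 alternatives, 1250 kept both sign and side of the threshold, 8 lost and 29 gained a call, and 0 called values changed sign. The sign of 38 of the 88 members changed in some alternative, with neither value past the threshold, and 18 members were called in at least 1. Members called as higher in fetal liver numbered 2 with an offset of 32 or a filter at the 60th percentile, 5 with the mean of probe sets, 14 under median centring, and 0 without the filter or without the variance trend. They numbered 0 to 3 with 1 array left out: 3 without marrow replicate 1, 1 without marrow replicate 3 (Ndufaf1 in place of Ndufs1), and 0 without marrow replicate 2 or any fetal liver replicate. No member was called as higher in marrow under any of the 16 alternatives. The members' median was 0.50 under median centring and 0.13 to 0.29 with 1 array left out. Members with fetal liver above marrow on every array numbered 45 under median centring and 19 to 38 with 1 array left out, when fewer arrays have to be ordered. Those with marrow above numbered 1 under median centring, with the filter at the 60th percentile and without suffixed probe sets. They numbered 2 to 8 with 1 array left out. Over the whole table, calls higher in fetal liver numbered 897 under median centring, 166 without the variance trend and 102 to 320 with 1 array left out, and calls higher in marrow 317 to 451 with 1 array left out. Without fetal liver replicates 3, 2 and 1 the calls higher in fetal liver numbered 102, 106 and 177, against 350 with all arrays. Median centring moved the share of calls that are higher in marrow from 61.2% to 32.8%.

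Pathway genes called as higher in fetal liver numbered 13 under median centring, 5 with the mean of probe sets and 4 without suffixed probe sets. They numbered 1 without the variance trend and 0 to 3 with 1 array left out. Those higher in marrow numbered 1 with an offset of 1, under quantile normalization and with the filter at the 60th percentile. They also numbered 1 with the mean of probe sets and without suffixed probe sets. They numbered 3 without the variance trend, and 1 to 2 with 1 array left out. With the replicate number as a block, 6 members (Atp5d, Atp5o, Ndufa9, Ndufc1, Ndufs1 and Sdhd) and 8 pathway genes were called as higher in fetal liver, and 522 and 688 genes of the table as higher in fetal liver and marrow. The cause of these shifts was not tested.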
